A study of Mus musculus with 12 samples.

Results

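Voltage-gated sodium channels are described here through 6 of their subunit genes, taken by symbol from the 54146 gene records of a mouse heart RNA sequencing series. The alpha subunit genes are Scn10a, Scn4a and Scn7a, and the beta subunit genes are Scn2b, Scn3b and Scn4b. All 6 matched a record in the annotation and all 6 were above the low-count filter in each of the 12 libraries, so none was tested through a single group.

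Hearts came from wild-type mice that had sham surgery (Sham WT, 4 libraries), from wild-type mice that had transverse aortic constriction (TAC WT, 4 libraries) and from Nron knockout mice, which lack a long noncoding RNA, with that constriction (TAC KO, 4 libraries). Constriction narrows the aorta and puts a pressure load on the left ventricle, and all hearts were taken 6 weeks after the operation. A sham-operated knockout group was not analysed here, so the knockout is compared under constriction only. The labels give no strain, sex, age, chamber or knockout design and do not state that each library is 1 animal, so the p-values reflect only how far these libraries differ, which may be technical.

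A voltage-gated sodium channel consists of a pore-forming alpha subunit and smaller beta subunits, which shape the gating and membrane placement of the pore. In working heart muscle the channel opens at the start of each action potential, and the inward sodium current carries the impulse from cell to cell. Some alpha subunits are better known from other excitable tissue: Nav1.8 (Scn10a) from sensory neurons and Nav1.4 (Scn4a) from skeletal muscle, while Nax (Scn7a) is a related sodium-sensing channel that is not opened by voltage in the usual way.

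Library totals were 26288519 to 35945770 counts. The 8 cardiomyocyte markers summed to 69375.7 to 80069.6 CPM (counts scaled to a common library total) for Sham WT. Their sums were lower in both TAC groups, at 62377.1 to 66703.3 CPM for TAC WT and 62603.7 to 67124.5 for TAC KO. Myh6 gave the largest part, averaging 30664.7 CPM for Sham WT, 24846.6 for TAC WT and 24299.5 for TAC KO. Actc1 and Actn2 averaged higher in both TAC groups than in Sham WT. At an adjusted p under 0.05, edgeR called 3 of the 8 markers in TAC WT against Sham WT, all lower. It also called 3 in TAC KO against Sham WT, all lower. Over all genes tested 19.7% and 27.6% were called in these comparisons. The heart label was thus met by its defining genes in each library. The part of the lower cardiomyocyte marker sum in the subunit results was not tested. Both records of Nron held 0 counts in all 12 libraries, so its reads could not check the knockout label. In bulk heart RNA, fewer cells of a type and less RNA per cell cannot be told apart.

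After constriction, 3 of the 6 subunits fell in wild-type hearts: Scn10a, the neuronal Nav1.8 gene, by 6.15-fold, the beta subunit gene Scn4b by 2.31-fold and the skeletal muscle Nav1.4 gene Scn4a by 1.72-fold. Without Sham WT 2 only Scn10a was called there, and Scn4b was also lost without TAC WT 3. Scn4b alone was higher in TAC KO than in TAC WT, by 1.88-fold, and this call was lost in 7 of 12 fits that leave out 1 library. Scn10a was also 5.41-fold lower in TAC KO than in Sham WT, and it did not pass the test between TAC KO and TAC WT. Scn7a, Scn2b and Scn3b did not pass the test in any of the 3 comparisons. The edgeR quasi-likelihood test on counts, with p-values adjusted over the 15477 genes tested and a threshold of 0.05, made these calls. Among all genes tested, 19.7% were called in TAC WT against Sham WT and 10.0% were called lower, beside 3 of 6 subunits, all lower. For TAC KO against TAC WT 33.0% of genes were called and 15.7% were called higher, beside 1 of 6 subunits, which was higher. For TAC KO against Sham WT 27.6% of genes were called and 14.8% were called lower, beside 1 of 6 subunits, which was lower. The median log2 difference over the 6 subunits was -0.42 in TAC WT against Sham WT, 0.09 in TAC KO against TAC WT and -0.19 in TAC KO against Sham WT, beside medians over all genes tested of -0.00045, -0.0020 and 0.00031. TAC WT and Sham WT libraries each enter more than 1 of these comparisons, so the 3 sets of values are not independent. The libraries of the groups did not overlap for 2 of 6 subunits in TAC WT against Sham WT (24.7% of all genes tested), for 1 in TAC KO against TAC WT (28.4%) and for 1 in TAC KO against Sham WT (30.7%).

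**Figure D1:**
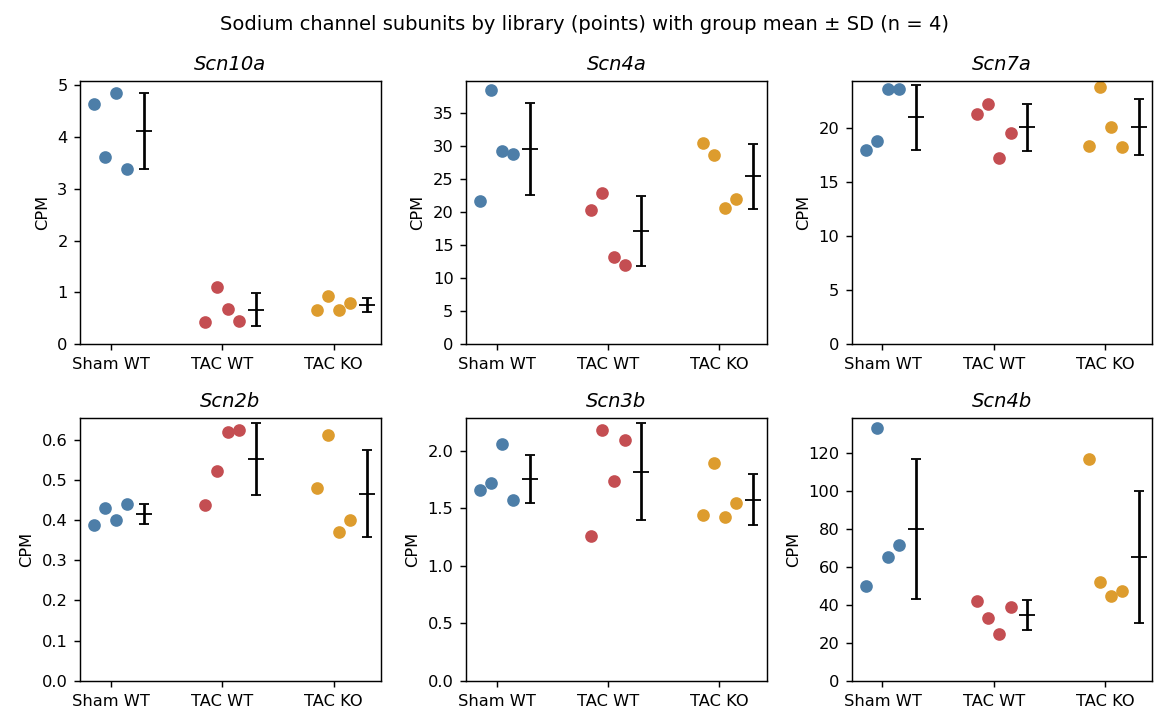
Level of each sodium channel subunit gene in CPM (vertical axes, each from 0) in the 12 libraries, shown as points by group, with the group mean ± SD (n = 4) beside them. Scn10a lies between 3.37 and 4.85 CPM in Sham WT and below 1.11 CPM in all but 1 of the TAC libraries, where it is 1.11 CPM, while Scn4b has 1 high library in Sham WT (133 CPM) and 1 in TAC KO (117 CPM).

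**Figure D2:**
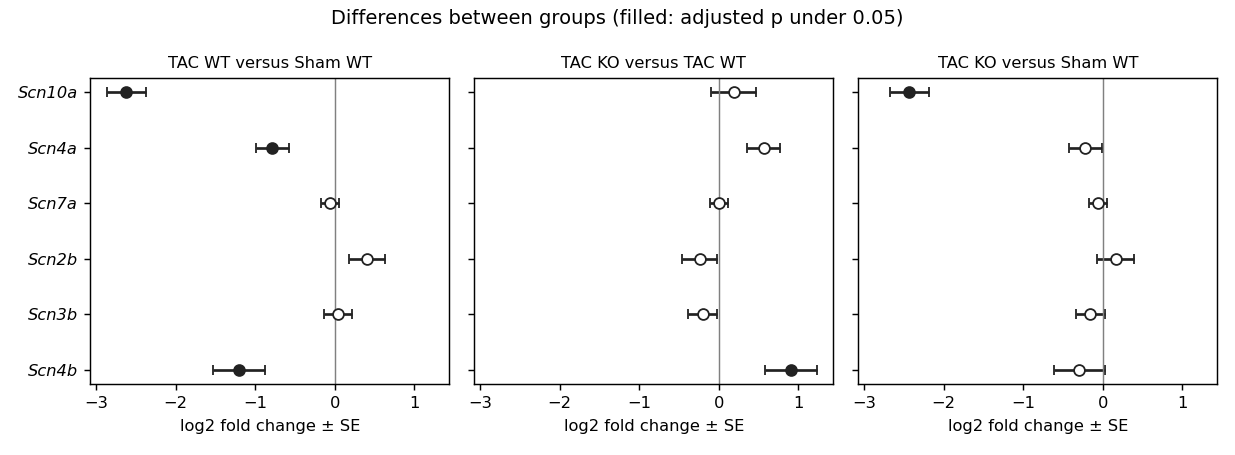
Log2 fold change ± SE of the 6 subunit genes in the 3 comparisons, from the fit across all 12 libraries. Filled points passed an adjusted p of 0.05: Scn10a, Scn4a and Scn4b in TAC WT versus Sham WT, Scn4b in TAC KO versus TAC WT, and Scn10a in TAC KO versus Sham WT.

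Scn10a (ENSMUSG00000034533.10, chromosome 9, 119608456 to 119719322 on the minus strand of GRCm38) encodes the pore of Nav1.8. It was at 4.64, 3.61, 4.85 and 3.37 CPM in the 4 Sham WT libraries, at 0.437, 1.11, 0.679 and 0.441 CPM in TAC WT, and at 0.652, 0.932, 0.655 and 0.801 CPM in TAC KO. All Sham WT libraries lay above all TAC libraries, and the TAC WT and TAC KO ranges overlapped. The means were 4.12 ± 0.737 CPM for Sham WT, 0.666 ± 0.315 for TAC WT and 0.760 ± 0.134 for TAC KO (SD, n = 4).

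The log2 difference of Scn10a in TAC WT from Sham WT was -2.62 ± 0.25 (SE; edgeR adjusted p = 1.281e-05). The same difference for TAC KO against Sham WT was -2.43 ± 0.24 (edgeR adjusted p = 2.96e-05). TAC KO and TAC WT differed by 0.19 ± 0.28 on the log2 scale, with an approximate 95% interval of -0.37 to 0.74 (edgeR adjusted p = 0.6534). These levels rest on few reads: each TAC library held 12 to 36 Scn10a counts and each Sham WT library 92 to 170. Gene counts add up all transcripts of a gene, so full-length and shorter Scn10a transcripts were not told apart.

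The genes whose levels followed Scn10a most closely over the 12 libraries were Cenpf, Cntn2 and Sbk3. Likeness was measured as the root mean square difference of log2 CPM after each gene was centred on its own mean, over 11984 genes, and it was 0.37, 0.42 and 0.43 for these genes. Scn10a itself varied by 1.22 around its mean on the same measure. Cenpf, a kinetochore protein gene, averaged 39.7 CPM for Sham WT, 7.003 for TAC WT and 8.36 for TAC KO. Cntn2, a cell adhesion gene that marks Purkinje fibre cells of the conduction system, averaged 8.04, 1.70 and 1.56 CPM in the same order. Sbk3, a kinase gene, averaged 8.17, 1.36 and 1.34 CPM. Scn10a shares its group pattern with each of them, since the ranking was over libraries of 3 groups and any gene with a large step between Sham WT and both TAC groups scores well.

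Cntn2 belongs to a list of 8 conduction system markers, which was followed beside Scn10a. Cntn2 fell by 2.25 on the log2 scale in TAC WT against Sham WT (SE 0.26; edgeR adjusted p = 5.262e-05). Of the 7 markers tested, Cntn2, Irx3 (-0.46) and Tbx3 (-0.40) fell in TAC WT, and none rose. Over all genes tested 19.7% were called there and 10.0% were called lower. Leaving out 1 library gave 2 to 5 calls among the markers, with 5 without TAC WT 2 (1 higher and 4 lower). The summed level of the list was 97.3 to 104 CPM for Sham WT, 66.5 to 72.9 for TAC WT and 59.1 to 78.9 for TAC KO. Isl1, which marks the sinus node, was listed at 0 counts in all 12 libraries. Against Sham WT, TAC KO showed a different mix: Cntn2 (-2.36), Tbx3 (-0.88), Gja5 (-0.61) and Irx3 (-0.31) fell. Over all genes tested 27.6% were called in that comparison. TAC KO was above TAC WT in Hcn4 (0.58), while Tbx3 (-0.48) and Shox2 (-0.999) were lower. Over the whole list 4 genes were called there, beside 33.0% of all genes tested, and 2 without Sham WT 2 and TAC KO 1. The part of conduction system cells in the Scn10a result was not tested.

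Scn10a was 0.438 to 0.653 times the Cntn2 level for Sham WT, 0.222 to 0.719 times for TAC WT and 0.371 to 0.633 times for TAC KO. These ranges overlapped, and the ratio was chosen after the values had been seen.

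**Figure D3:**
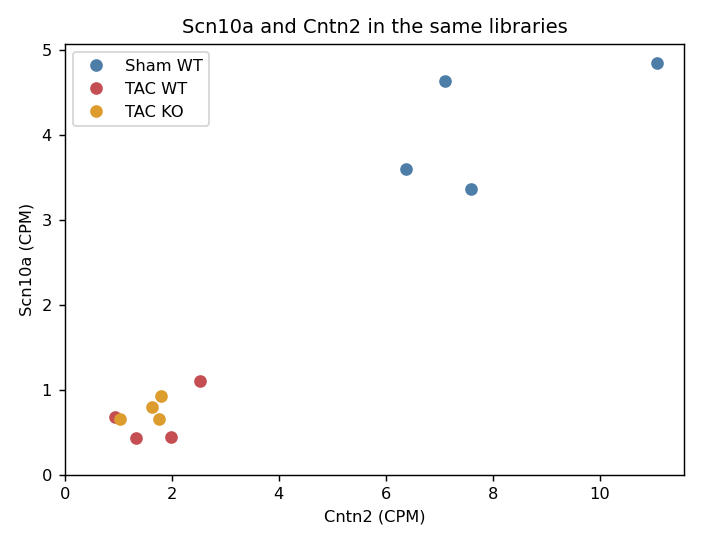
Scn10a level (vertical axis, CPM) against Cntn2 level (horizontal axis, CPM), each point 1 library, coloured by group. The 4 Sham WT libraries lie above 6 CPM of Cntn2 and 3 CPM of Scn10a, and the 8 TAC libraries lie together near the origin.

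Neuron markers were also followed, since Scn10a is a sensory neuron gene. The 8 neuron markers summed to 19.1 to 24.5 CPM for Sham WT, 25.8 to 32.5 for TAC WT and 23.3 to 26.7 for TAC KO. Uchl1 and Stmn2 gave most of this sum. Of the 5 markers tested, Uchl1 (0.72) and Tubb3 (0.98) rose in TAC WT against Sham WT, and Dbh, a noradrenaline synthesis gene, fell (-1.25; edgeR adjusted p = 0.01199). Over all genes tested 19.7% were called in that comparison. Dbh averaged 1.65 CPM in Sham WT, 0.696 in TAC WT and 0.923 for TAC KO. Th was at 0 counts in 11 of 12 libraries and Snap25 in 11. The 8 Schwann cell and glia markers, of which Erbb3 had the highest level, summed to 30.6 to 34.7 CPM for Sham WT, 26.0 to 30.1 for TAC WT and 24.4 to 31.4 for TAC KO. The 4 atrial markers summed to 1.70 to 2.93 CPM over all libraries. The part of these cell types in the Scn10a result was not tested.

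Scn4a (ENSMUSG00000001027.7, chromosome 11, 106318592 to 106353288, minus strand) encodes the pore of Nav1.4. Its levels were 21.6, 38.5, 29.2 and 28.7 CPM for Sham WT, 20.3, 22.9, 13.3 and 12.004 CPM for TAC WT and 30.5, 28.6, 20.6 and 21.9 CPM for TAC KO. The lowest Sham WT library lay below the highest of TAC WT, and the TAC KO range overlapped both of the others. The means were 29.5 ± 6.90 CPM for Sham WT, 17.1 ± 5.31 for TAC WT and 25.4 ± 4.87 for TAC KO (SD, n = 4).

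Scn4a fell by 0.78 on the log2 scale in TAC WT against Sham WT (SE 0.21; edgeR adjusted p = 0.0164). Without Sham WT 2, its highest library, the difference was -0.62 and no longer passed (edgeR adjusted p = 0.06204). TAC KO against TAC WT gave 0.56 ± 0.21 with an edgeR adjusted p of 0.0518, just outside the threshold. That value passed with RLE scaling (0.04968), with upper-quartile scaling (0.04114), without the low-count filter (0.005824) and with GC and length trends removed (0.03113). It did not pass with DESeq2, limma voom or 1 surrogate variable, or without Sham WT 2 and TAC KO 1 together. Of the 12 fits that leave out 1 library, it passed in only 4. TAC KO against Sham WT gave -0.22 with an approximate 95% interval of -0.62 to 0.18 (edgeR adjusted p = 0.4537).

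The 10 skeletal muscle markers followed beside Scn4a summed to 21.5 to 33.9 CPM for Sham WT, 22.4 to 66.4 for TAC WT and 15.6 to 35.0 for TAC KO. Most of the sum was Casq1, a calcium-binding protein of the sarcoplasmic reticulum, at 23.6, 33.6 and 22.1 CPM on average. Myog was at 0 counts in 9 of 12 libraries and Myh1 in 6. The TAC WT sums were 30.5, 22.4, 42.6 and 66.4 CPM, and the highest, TAC WT 4, also held 7.71 CPM of the myosin gene Myh4, against 0 to 0.0820 in the other TAC WT libraries. Of the 4 markers tested, only Tnnt3 was called in TAC WT against Sham WT, where it rose (1.77, edgeR adjusted p = 0.0113). It was at 0.861 to 4.11 CPM in TAC WT and 0.440 to 0.657 in Sham WT. Tnnt3 was also the only marker called in TAC KO against TAC WT, where it fell (-1.66, edgeR adjusted p = 0.01011). Over all genes tested 19.7% and 33.0% were called in these 2 comparisons. The part of skeletal muscle RNA in the Scn4a result was not tested. Pm20d1, Neo1 and Slc40a1 were the genes most like Scn4a over the 12 libraries (0.21, 0.24 and 0.24 on the likeness measure, where Scn4a itself varied by 0.47).

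Scn7a (ENSMUSG00000034810.7, chromosome 2, 66673425 to 66784914, minus strand) encodes the sodium sensor Nax. It stayed between 17.2 and 23.7 CPM in all 12 libraries, with means of 20.9 ± 3.03 CPM for Sham WT, 20.0 ± 2.18 for TAC WT and 20.1 ± 2.59 for TAC KO (SD, n = 4). The log2 difference in TAC WT from Sham WT was -0.06, with an approximate 95% interval of -0.29 to 0.16 (edgeR adjusted p = 0.7541). TAC KO differed from TAC WT by 0.0021, with an interval of -0.22 to 0.23 (edgeR adjusted p = 0.9926). Scn7a has a low GC content, 40.2% in its longest transcript, which is the 7.30 percentile of genes tested. When the dependence of each library on GC content and length was removed, Scn7a was called higher in TAC KO than in TAC WT (0.30; edgeR adjusted p = 0.02553). Ubr3, Cplane1 and Sbf2 were the genes most like it (0.09, 0.09 and 0.10, where Scn7a itself varied by 0.16).

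Scn4b (ENSMUSG00000046480.6, chromosome 9, 45138395 to 45154152, plus strand) encodes a beta subunit that binds the alpha subunit through a disulphide bond. It was at 49.8, 133, 65.4 and 71.6 CPM for Sham WT, at 42.1, 33.4, 24.5 and 38.8 CPM for TAC WT and at 117, 51.9, 44.6 and 47.5 CPM for TAC KO. Every TAC WT library lay below every library of the other groups, while Sham WT 2 and TAC KO 1 stood well above the rest of their groups. The means were 80.0 ± 36.6 CPM for Sham WT, 34.7 ± 7.69 for TAC WT and 65.3 ± 34.7 for TAC KO (SD, n = 4).

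Scn4b fell by 1.21 on the log2 scale in TAC WT against Sham WT (SE 0.33; edgeR adjusted p = 0.01838). Leaving out Sham WT 2 gave -0.83 (edgeR adjusted p = 0.07491) and leaving out TAC WT 3 gave -1.07 (edgeR adjusted p = 0.05248). Leaving out Sham WT 2 and TAC KO 1 together, a setting chosen after seeing the data, gave -0.83 with an edgeR adjusted p of 0.005593.

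TAC KO was 0.91 ± 0.33 above TAC WT in Scn4b on the log2 scale (edgeR adjusted p = 0.04549). This call was lost with DESeq2 (0.05994), limma voom with quality weights (0.1934) and 1 surrogate variable (0.05441), and in 7 of the 12 fits that leave out 1 library. The 7 were those without TAC KO 1, Sham WT 3, Sham WT 4 and each of the 4 TAC WT libraries in turn, and their edgeR adjusted p ran up to 0.2226. Without TAC KO 1 the difference was 0.46, and with Sham WT 2 also left out it was 0.46 with an edgeR adjusted p of 0.06004. TAC KO against Sham WT gave -0.30 with an approximate 95% interval of -0.93 to 0.33 (edgeR adjusted p = 0.523), and 0.07 without Sham WT 2.

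TAC KO 1 also stood apart in genes of the circadian clock, a list of 14 chosen after the values had been seen. It lay outside the range of the other 3 TAC KO libraries in 14 of the 14 genes, and outside all 11 other libraries in 13. Dbp, a clock output transcription factor gene, was at 208 CPM in TAC KO 1 and at 13.3 to 33.9 CPM in the other TAC KO libraries. Per2, a repressor of the clock, was at 30.0 CPM against 4.95 to 5.10 CPM. Arntl, which activates it, was at 5.73 CPM against 23.0 to 35.5 CPM. Sham WT 2, the other library with high Scn4b, had 71.1 CPM of Dbp, the lowest of Sham WT (71.1 to 96.8 CPM). In 10 of the 14 clock genes it lay outside the other Sham WT libraries, each time as the lowest. For neither library was the same count made over all genes tested, and any 1 of 4 libraries is often the highest or lowest. The part of the clock state in the Scn4b values was not tested.

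**Figure D4:**
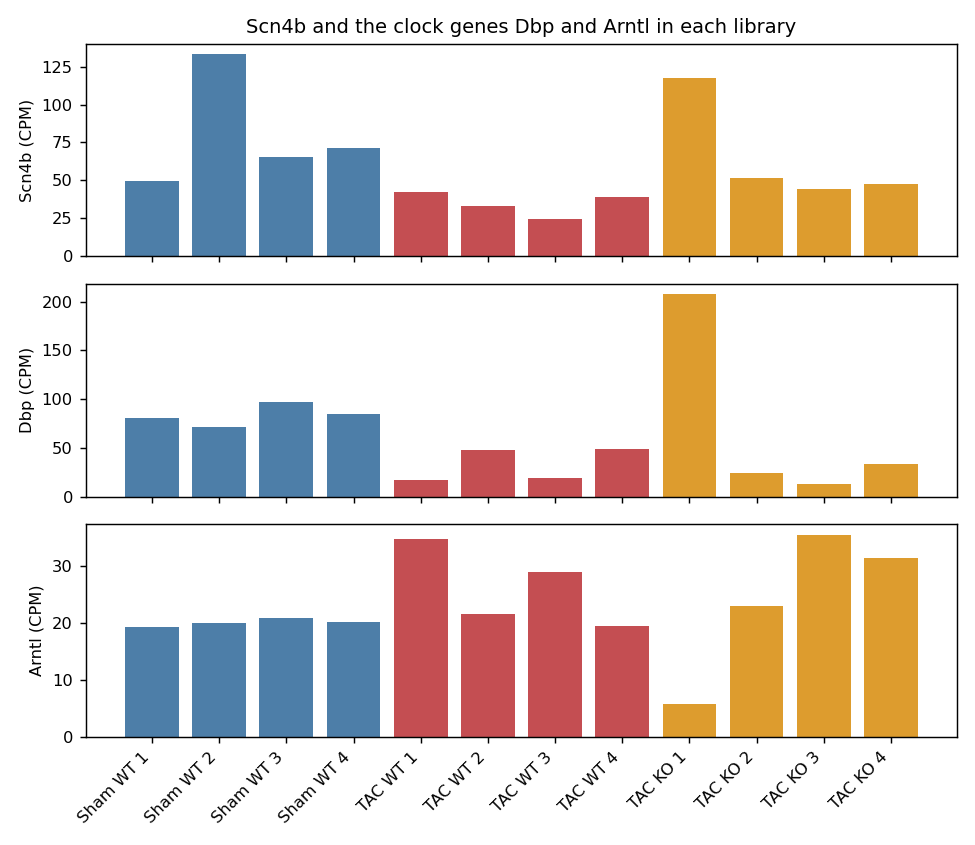
Levels of Scn4b, Dbp and Arntl in CPM (vertical axes, from 0) in each of the 12 libraries, as bars coloured by group. TAC KO 1 has the highest Dbp (208 CPM) and the lowest Arntl (5.73 CPM) of all libraries, and the second highest Scn4b (117 CPM) after Sham WT 2 (133 CPM), which has Dbp at 71.1 CPM.

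Foxo6, the adjacent opposite-strand record Foxo6os and Sema6c were the genes most like Scn4b over the 12 libraries (0.30, 0.38 and 0.33, where Scn4b itself varied by 0.67). Foxo6, a forkhead transcription factor gene, was at 4.78 CPM in Sham WT 2 and 4.02 in TAC KO 1, the highest of their groups, as Scn4b was. It averaged 3.89 CPM for Sham WT, 1.54 for TAC WT and 2.53 for TAC KO. Sema6c, a semaphorin gene, averaged 7.60, 3.22 and 6.34 CPM.

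Scn2b (ENSMUSG00000070304.12, chromosome 9, 45117782 to 45130070, plus strand) ends 8324 bases before Scn4b begins and encodes the other beta subunit that is joined to the pore by a disulphide bond. It was the lowest of the beta subunits, with 12 to 21 counts per library. The means were 0.414 ± 0.0250 CPM for Sham WT, 0.551 ± 0.0891 for TAC WT and 0.465 ± 0.107 for TAC KO (SD, n = 4). The 4 Sham WT libraries ran from 0.386 to 0.440 CPM and the TAC WT libraries from 0.437 to 0.624 CPM, so the ranges met at their edges. TAC WT against Sham WT gave 0.40 on the log2 scale, with an approximate 95% interval of -0.04 to 0.85 (edgeR adjusted p = 0.2721). The antisense noncoding record Gm10684, which spans Scn2b, held at most 1 count in any library. Hacd4, Med20 and Cipc were the genes most like Scn2b (0.12, 0.13 and 0.14, where Scn2b itself varied by 0.23).

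The ratio of Scn4b to Scn2b per kb, taken within each library, does not depend on how libraries are scaled. It was 121 to 290 for Sham WT, 37.0 to 90.1 for TAC WT and 79.4 to 228 for TAC KO. All Sham WT ratios lay above all TAC WT ratios, and TAC KO overlapped both. The means were 179 ± 75.6, 61.2 ± 21.8 and 133 ± 65.3 (SD, n = 4), with no test made.

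Scn3b (ENSMUSG00000049281.16, chromosome 9, 40269217 to 40291618, plus strand) encodes a beta subunit that is held to the pore without a disulphide bond. It was at 1.58 to 2.06 CPM for Sham WT, 1.26 to 2.18 for TAC WT and 1.42 to 1.90 for TAC KO, and the 3 ranges overlapped. The means were 1.75 ± 0.210, 1.82 ± 0.420 and 1.58 ± 0.219 CPM (SD, n = 4). The log2 differences were 0.04 in TAC WT from Sham WT (edgeR adjusted p = 0.9023), -0.20 in TAC KO from TAC WT (edgeR adjusted p = 0.4317) and -0.16 in TAC KO from Sham WT (edgeR adjusted p = 0.5555). Approximate 95% intervals were -0.31 to 0.40, -0.56 to 0.16 and -0.52 to 0.20. Sirt1, Tmem44 and Kcnt2 were the genes most like it (0.14, 0.15 and 0.16, where Scn3b itself varied by 0.23).

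Levels of different genes were compared per kb of merged exons. Scn4b was the highest of the 6 in every group, at 16.1 CPM per kb for Sham WT, 6.97 for TAC WT and 13.1 for TAC KO. Scn4a and Scn7a came next, at 4.19 and 2.85 for Sham WT, 2.43 and 2.73 for TAC WT and 3.60 and 2.74 for TAC KO, and their ranges overlapped in each group. In Sham WT Scn10a followed with 0.517 CPM per kb, above Scn3b with 0.321 and Scn2b with 0.0889, and none of these ranges overlapped. After constriction Scn10a shared the lowest place with Scn2b. Scn10a was at 0.0836 CPM per kb and Scn2b at 0.118 in TAC WT, and they were at 0.0954 and 0.09997 in TAC KO, with overlapping ranges in both groups.

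**Figure D5:**
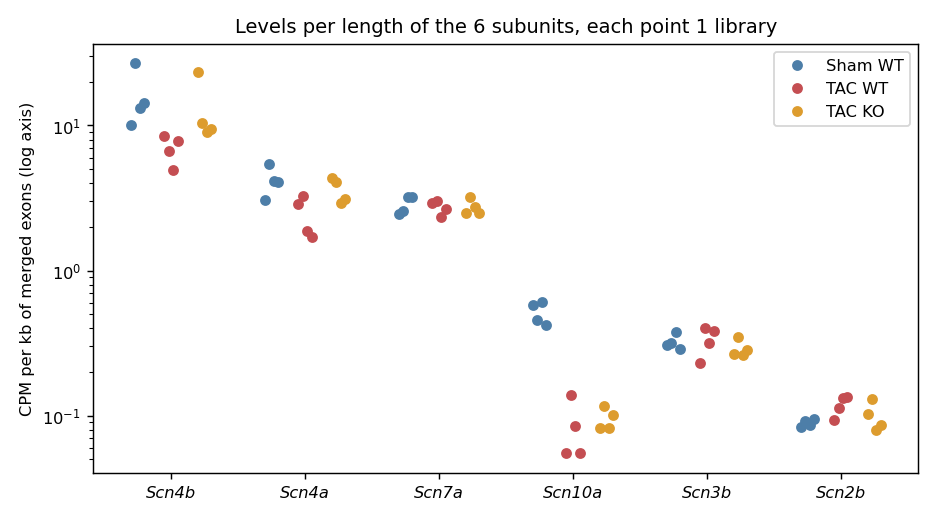
Levels of the 6 subunit genes per kb of merged exons (vertical axis, CPM per kb, log axis), each point 1 library, coloured by group. Scn4b lies highest in every group, and Scn10a moves from above Scn3b in Sham WT to the level of Scn2b in both TAC groups.

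Among other alpha subunit genes, Scn3a and Scn2a were tested and not called by edgeR in any of the 3 comparisons. Scn1a, Scn8a, Scn9a and Scn11a were below the low-count filter.

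The list of 14 channel partners and regulators, which holds FGF homologous factors, anchors and trafficking genes, was tested in full. The shares called over all genes tested were 19.7% in TAC WT against Sham WT and 33.0% in TAC KO against TAC WT. In TAC KO against Sham WT the share was 27.6%. In TAC WT against Sham WT 2 rose and 2 fell, with a list median of -0.02. The membrane protein gene Slmap (0.45) rose, while Fgf13 (-0.69), whose product binds the tail of the channel, and Gpd1l (-0.35) fell. In TAC KO against TAC WT 2 rose and 3 fell, with a median of -0.11, and without Sham WT 2 and TAC KO 1 the calls were 1 and 2. The 4 with the smallest p were Slmap (-0.57), Fgf11 (-0.68), Rangrf (0.19), a trafficking factor gene for the cardiac channel, and Gpd1l (0.31). Against Sham WT, TAC KO had 3 that rose and 3 that fell, with a median of -0.15. Fgf13 (-0.62), Fgf11 (-0.69) and Fgf12 (-1.85) fell and Rangrf (0.23) rose. The Fgf12 value rests on few reads, 135 counts over the 12 libraries. Its TAC KO libraries, at 0.0855 to 0.257 CPM, were below the low-count cutoff of 0.295 CPM. Its Sham WT libraries, at 0.401 to 0.714 CPM, were above that cutoff. Fgf12 was thus tested only because it is higher outside TAC KO, so its fall is not independent of the filter. Fgf13 was lower than in Sham WT in both TAC groups.

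The 8 sodium transport genes cover the sodium pump, exchangers and cotransporters. None was called by edgeR in TAC WT against Sham WT (list median 0.05), beside 19.7% of all genes tested. Between TAC KO and TAC WT the cotransporter genes Slc12a2 (-0.47) and Slc4a4 (-0.61) fell, with a list median of -0.16. Slc4a4 fell in TAC KO against Sham WT (-0.57), where the list median was -0.17.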

How the data were processed

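Mouse heart RNA of 12 libraries was poly(A)-selected from 250 ng and made into strand-marking libraries, per the labels' protocols. The authors deposited raw counts per gene, and per the submitters' processing notes the build was GRCm38 and the tools were bcl2fastq, DESeq2, featureCounts 1.6.4, MultiQC 1.7, StringTie 1.3.5, STAR, Trim Galore 0.5.0 and FastQC 0.11.8. The strand setting and annotation release are not given in the sources used here. Replicates were numbered in accession order.

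Records were matched without version to GENCODE on GRCm38, and 54079 of 54146 gained a symbol. Counts of all 12 libraries were fitted in R 4.3.3 with edgeR 4.0.16 (quasi-likelihood F-test, TMM, filterByExpr, ~0 + group), and calls used a Benjamini-Hochberg adjusted p under 0.05 over 15477 genes. The common biological coefficient of variation was 0.113. CPM values use TMM-scaled library sizes, and levels per kb divide them by merged exon length. Alternatives used DESeq2 1.42.0, limma 3.58.1 and sva 3.50.0. The fit was also run on counts simulated from its own estimates of spread, and the outcome is not reported here. Protein and promoter sequences were not used here.

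The 6 genes and all lists were chosen with earlier results of these data known. Named genes were the 6 subunits, at most 4 tested genes per list and comparison with the smallest p, and the 3 genes most like each subunit (established symbol, mean of at least 1 CPM). Cell type markers were taken as listed, and clock genes were added later. Some genes of these lists are not reported here.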

Additional observations from a re-analysis of the deposited data

Results flagged for a closer look

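Scn4b in TAC KO 1 was 117 CPM, and its gap to the next TAC KO library exceeded Dixon's 95% critical value for 4 samples. The other TAC KO libraries were at 51.9, 44.6 and 47.5 CPM. It was the only outlying library among the 18 groups of 4 values tested for the 6 subunits, and chance flags about 1 in 20 groups. TAC KO 1 was also outside the other TAC KO libraries in all 14 clock genes examined. The same count over all genes tested was not made.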

How the results depend on the processing

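Scn10a was called lower in both TAC groups than in Sham WT under every setting run. The count of subunits called in TAC KO against TAC WT was 1. It was 0 with DESeq2, limma voom and 1 surrogate variable, 2 with RLE scaling, upper-quartile scaling and no low-count filter, and 3 with GC and length trends removed. It was 0 without Sham WT 2 and TAC KO 1 together, a setting chosen after seeing the data. Leaving out 1 library at a time gave 0 to 2 calls there, 1 to 3 in TAC WT against Sham WT, where only the fit without Sham WT 2 gave 1, and 1 to 1 in TAC KO against Sham WT. Differences near 0 changed sign. Scn3b in TAC WT against Sham WT was -0.15 with limma voom and -0.062 to 0.19 when 1 library was left out. Scn7a in TAC KO against TAC WT was -0.043 with limma voom, -0.0040 with a 1 CPM filter and -0.092 to 0.053 when 1 library was left out. Scn7a in TAC KO against Sham WT was 0.22 with GC and length trends removed and -0.14 to 0.0030 when 1 library was left out, and in TAC WT against Sham WT -0.12 to 0.0073. Scn4b in TAC KO against Sham WT was -0.73 to 0.070 when 1 library was left out. The cause of these changes was not tested. The 1 CPM filter removed Scn2b, so it has no value there. Scn2b, with 12 to 21 counts a library, and Scn10a after constriction rest on few reads. No paired analysis was possible because the labels carry no replicate numbers shared between groups.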

Other observations

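Of the 53 protein-coding genes within 250 kb of a subunit gene, 33 were tested. Over all genes tested, edgeR called 19.7% in TAC WT against Sham WT. It called 33.0% in TAC KO against TAC WT and 27.6% in TAC KO against Sham WT. In TAC WT against Sham WT edgeR called 2 higher and 2 lower: Fxyd6 (0.80), a regulator of the sodium pump, and Ftsj3 (0.25), Tmprss13 (-1.67), a membrane protease gene, and Prr29 (-0.79). In TAC KO against TAC WT 3 rose and 4 fell, of which Kmt2a (-0.50), Gorasp1 (0.41), Taco1 (0.46) and Atp5l (-0.37) had the smallest p, and without Sham WT 2 and TAC KO 1 the calls were 2 and 2. TAC KO against Sham WT had 1 that rose and 7 that fell. Fxyd6 rose by 0.85 and Tmprss13 fell by 1.49 on the log2 scale there.

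Clock genes were listed after the values had been seen. In TAC WT against Sham WT 3 of 14 were called, all lower, beside 19.7% of all genes tested: Hlf (-1.10; edgeR adjusted p = 0.01635), Nr1d2 (-0.64; edgeR adjusted p = 0.04003) and Nr1d1 (-0.67; edgeR adjusted p = 0.04765). Dbp was at 71.1 to 96.8 CPM in Sham WT and 16.7 to 48.4 CPM in TAC WT, without overlap, and was not called (-1.35; edgeR adjusted p = 0.166). In TAC KO against TAC WT, Clock alone of the 14 was called (-0.41; edgeR adjusted p = 0.02056), beside 33.0% of all genes tested. The summed level of the list was 621 to 710 CPM in Sham WT, 433 to 565 for TAC WT and 377 to 977 for TAC KO.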
